A study of Canis lupus familiaris with 40 samples.

Results

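The genes described here held nearly the same share of the reads in 6 populations of dog blood cells. They were chosen on measured values, from the deposited CPM (counts scaled to the total of their library). A gene was kept if it stayed under 20000 CPM in every library, if the lowest of its 6 population medians was at least 50 CPM, and if its highest median was at most 1.5 times its lowest. Of 24580 Ensembl gene IDs, 20 reached 20000 CPM in some library, 1364 of the others met the level of 50 CPM, and 165 of these met the ratio as well. The limit of 200 genes was not reached, so all 165 were kept. They are called CPM-steady genes below, because the ratio held on CPM. For most of them it did not hold with TMM factors or DESeq2 size factors, other scalings described below. The 1364 genes that met the level, the 165 included, serve as the background.

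The study sequenced RNA of flow-sorted myeloid cells from the blood of dogs, to compare myeloid-derived suppressor cells (MDSCs) of tumor-bearing dogs with neutrophils (PMNs) and monocytes. It has 40 libraries: 5 H PMN and 3 H Mono from healthy dogs, and 10 C PMN, 8 C Mono, 9 PMN-MDSC and 5 M-MDSC from tumor-bearing dogs with several kinds of tumor. PMNs were sorted as CADO48A-positive cells from the dense pellet, and monocytes as MHC II-positive, CD14-positive cells from the mononuclear layer. Both MDSC subsets came from the mononuclear layer as MHC II-negative cells, PMN-MDSCs by CADO48A without CD14 and M-MDSCs by CD14 without CADO48A. M-MDSCs are a putative subset, since suppression of T cells was assayed with PMN-MDSCs and PMNs only. The labels give no age, sex or treatment, and no dog for each library, while the study's text speaks of PMN-MDSCs and PMNs of the same patients. Some libraries of these populations thus seem to share a dog, the tests below take no account of it, and p-values measure the spread between libraries. The series' design text counts 1 library fewer than the labels for C PMN and for PMN-MDSC, and does not say which.

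Cells of all kinds need a common set of genes, for protein synthesis, energy supply, splicing, transport and the cytoskeleton, and such genes are often called housekeeping genes. Reference genes for RT-qPCR are taken from them on the premise that their transcript level moves little between the samples compared. Mature neutrophils hold little RNA, much of it from a small number of abundant transcripts, while monocytes use a broader set of genes. The files give Ensembl IDs without symbols and none of the 24580 IDs matched the gene table at hand, so which of these roles the 165 genes serve is not given here.

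Most libraries were deep, and 2 stood apart. In the other 38 libraries the counts on genes ran from 19130545 to 60473238. C PMN replicate 7 had 4229857 counts on genes and PMN-MDSC replicate 9 had 6299310. At least 10 counts were found on 3470 genes in C PMN replicate 7 and on 3959 in PMN-MDSC replicate 9, against population medians of 9901 and 10590. In C PMN replicate 7 the 6 most abundant genes held 50% of the counts, and in PMN-MDSC replicate 9 the 5 most abundant did, whereas 72 to 333 genes were needed in the other 38 libraries. Both belong to library series PAT4694, the prefix of 14 of the library titles, and the other 26 titles start with GAR4079. Results that rest on these libraries are given with and without them. Of the deeper libraries, PMN-MDSC replicates 3 and 8 stood apart in the background genes, of which 79.0% and 77.4% were within 2-fold of their PMN-MDSC median, against 91.1% to 99.7% in the other 36. The background genes held 64.4% and 61.1% of their counts, against 44.7% to 51.9% in the other 6 deeper PMN-MDSC libraries and 58.3% to 65.3% in the deeper C PMN libraries. This was noticed after the results were seen, and the cause was not tested.

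The CPM-steady genes were moderately expressed. The lowest population median of a gene ran from 50.6 to 1959 CPM, with a median over the 165 genes of 96.4 CPM, against 99.8 CPM for the background. They made up 12.6% of the background genes with a lowest median of 50 to 100 CPM (86 of 683), 14.1% at 100 to 200 CPM (52 of 370), 9.52% at 200 to 500 CPM (20 of 210) and 6.93% at 500 CPM or more (7 of 101). Per length, their lowest median ran from 8.46 to 2977 TPM (the same kind of share after division by gene length), with a median of 56.3 TPM. The length that the authors' TPM implies, relative to the median gene of a library, had a median of 1.29 for the CPM-steady genes and 1.26 for the background. In the 38 deeper libraries 145 of the 165 were above 10 TPM in every library. With both shallow libraries included, 32 of them were.

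The ratio of highest to lowest median ran from 1.17 to 1.4997 with a median of 1.37, against a median of 2.31 and a highest value of 156 in the background. It was at most 1.2 for 7 genes and at most 1.4 for 94. The thresholds cut through a continuous range. The 3 genes just inside the ratio limit had ratios of 1.4987, 1.4990 and 1.4997, and the 3 just outside had 1.5003, 1.5011 and 1.5012. For the level, the 3 genes just inside had lowest medians of 50.8, 50.7 and 50.6 CPM, and the 3 just outside had 49.6, 49.0 and 48.6 CPM.

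No population held the lowest or the highest median of most CPM-steady genes. The lowest median was in C PMN for 36 genes, C Mono for 33, PMN-MDSC for 32, H Mono for 28, M-MDSC for 22 and H PMN for 14. The highest was in H PMN for 46 genes, H Mono for 35, M-MDSC for 27, C Mono for 20, C PMN for 19 and PMN-MDSC for 18. Thus H PMN libraries were more often at the top than at the bottom, and C PMN libraries the other way round. The median over the 165 genes of the population median was 116 CPM in H PMN, 109 in C PMN, 111 in PMN-MDSC, 118 in H Mono, 112 in C Mono and 114 in M-MDSC.

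ENSCAFG00000008221 had the highest lowest-median, and a ratio of 1.28. Its H PMN values were 1394, 1869, 1959, 2000 and 2227 CPM, and its C PMN values ran from 1275 through a median of 1975 to 2846 CPM. PMN-MDSCs had 1248 CPM at the lowest, 2165 at the median and 2869 at the highest. The populations overlapped, and every library was within 2-fold of the median of its population. H Mono libraries had 1730, 2250 and 2530 CPM, C Mono libraries 1357 to 2585 CPM with a median of 1960, and M-MDSC libraries 1980, 2246, 2501, 3002 and 3228 CPM. Unlike most of the 165 genes it was not low in the shallow libraries, with 2071 CPM in C PMN replicate 7 and 1528 CPM in PMN-MDSC replicate 9. The next in level, ENSCAFG00000029403, had population medians from 1798 CPM in H Mono to 2604 CPM in H PMN, and was lower in those libraries, at 546 and 920 CPM.

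ENSCAFG00000013247 had the smallest ratio, 1.17, with population medians from 73.4 CPM in H PMN to 85.6 CPM in PMN-MDSC. The values behind these close medians differed more than the medians did. H PMN libraries had 58.3, 64.5, 73.4, 76.3 and 99.8 CPM, H Mono libraries 74.0, 77.0 and 85.2 CPM, and M-MDSC libraries 62.2, 80.1, 83.1, 84.4 and 90.4 CPM. C PMN libraries ran from 8.98 through 77.5 to 97.6 CPM, PMN-MDSC libraries from 1.746 through 85.6 to 151 CPM, and C Mono libraries from 52.9 through 83.3 to 98.3 CPM. The lowest C PMN and PMN-MDSC values were those of the shallow libraries, without which the lowest were 46.9 and 68.1 CPM. The gene with the next smallest ratio, ENSCAFG00000001395 at 1.17, showed the same layout, with medians between 279 CPM in M-MDSC and 328 CPM in H Mono and with 9.22 and 3.33 CPM in the shallow libraries.

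Steady medians did not make steady libraries. Over the 38 deeper libraries, the highest value of a CPM-steady gene was 1.68 to 9.15 times its lowest, with a median of 2.97. It was at most 2 times for 7 of the 165 genes and at most 3 times for 84. Set against the median of its own population, 109 of the 165 genes (66.1%) were within 2-fold in all 38 libraries, where 44.5% of the background was (607 of 1364). Without PMN-MDSC replicates 3 and 8, 110 genes (66.7%) were so in all 36 libraries, and 54.9% of the background. The gene with the fewest such libraries was within 2-fold in 30 of the 38. Seen by library, 154 to 165 of the 165 genes were within 2-fold of their population median. The lowest numbers were 154 in PMN-MDSC replicate 7, 155 in C PMN replicate 1 and 157 in C PMN replicate 10.

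**Figure D1:**
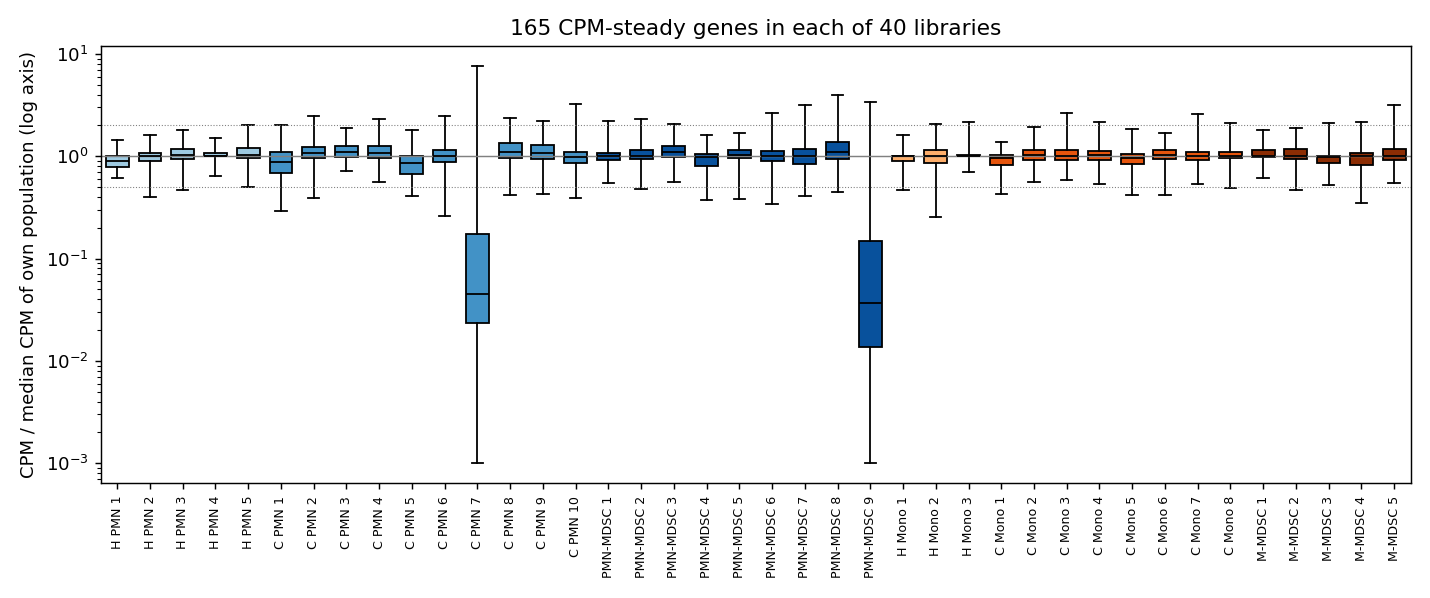
Each box shows the CPM of the 165 CPM-steady genes in a library divided by the gene's median CPM in that library's population, on a log axis, with the median, the quartiles and whiskers to the lowest and highest gene, and genes at 0 counts drawn at 0.001. Dotted lines mark 2-fold below and above. In 38 libraries at least 154 genes lie within 2-fold, and in C PMN 7 and PMN-MDSC 9 the number is 10.

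The spread between libraries of a population was measured as the SD of log2(CPM + 1). Its median over the CPM-steady genes was 0.24 in H PMN (n = 5), 0.24 in H Mono (n = 3), 0.23 in C Mono (n = 8) and 0.29 in M-MDSC (n = 5). In C PMN (n = 10) it was 1.37 and in PMN-MDSC (n = 9) 1.51, and without C PMN replicate 7 and PMN-MDSC replicate 9 these fell to 0.38 and 0.33. PMN-MDSC thus had the largest value of the 6 populations with all libraries, and C PMN had it without the shallow ones. The H Mono value rests on 3 libraries and was 0.15 without H Mono replicate 2. In PMN-MDSC, the 5 libraries of series GAR4079 alone gave 0.26.

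The background was a little more variable in each population once the shallow libraries were left out. Its median SD was 0.25 in H PMN, 0.42 in C PMN, 0.43 in PMN-MDSC, 0.25 in H Mono, 0.29 in C Mono and 0.32 in M-MDSC. The gap between the CPM-steady genes and the background was widest in PMN-MDSC, at 0.33 against 0.43, and narrowest in the healthy dogs' cells. Without PMN-MDSC replicates 3 and 8 as well, the PMN-MDSC values were 0.28 and 0.32, so much of this gap rested on those libraries. The widest gap was then in C Mono, at 0.23 against 0.29. With the shallow libraries in, C PMN had 1.37 for the CPM-steady genes and 1.35 for the background, and PMN-MDSC had 1.51 and 1.56. No test was made of these differences, since the choice of genes used the same values.

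At these depths the counting error of a gene is small by construction, and it is given for scale only. In the deeper libraries a CPM-steady gene had 584 counts or more, and the median gene of a library had 2030 to 7250 counts. The counting error this implies for the median gene was 1.41% to 1.65% of its level in the 6 populations, while the CV between libraries was 16.3% to 25.4%. The observed CV was above the counting error for all 165 genes in each population but H Mono, where it was above it for 164. Counting error covers read sampling only, and PCR copies in low-input libraries are not independent molecules.

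**Figure D2:**
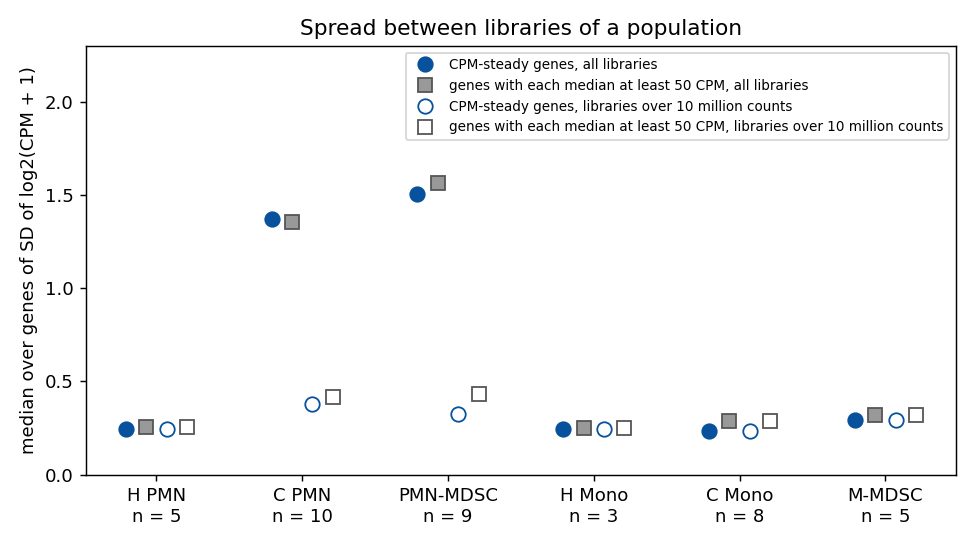
For each population, the median over genes of the SD of log2(CPM + 1) between its libraries is shown for the 165 CPM-steady genes (circles) and the 1364 background genes (squares), with all libraries (filled) and without C PMN replicate 7 and PMN-MDSC replicate 9 (open). For the CPM-steady genes the value drops from 1.37 to 0.38 in C PMN and from 1.51 to 0.33 in PMN-MDSC, and the other 4 populations lie between 0.23 and 0.29.

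At the quiet end, ENSCAFG00000032168 had the smallest SD averaged over the 6 populations, 0.27. This place rests on the shallow libraries, since without them its average was 0.24 and 31 of the 165 genes had a smaller one, down to 0.13. Its H PMN libraries had 318, 348, 370, 410 and 422 CPM, and its C PMN libraries ran from 244 through 375 to 429 CPM. PMN-MDSC libraries ran from 219 through 339 to 434 CPM, and C Mono libraries from 231 through 368 to 390 CPM. H Mono libraries had 242, 280 and 356 CPM, and M-MDSC libraries 312, 314, 329, 373 and 494 CPM. It was within 2-fold of its population median in every library, the shallow libraries included, where it had 244 and 219 CPM. ENSCAFG00000003594 came next, with an average SD of 0.28 that dropped to 0.17 without the shallow libraries, where it had 39.5 and 51.4 CPM.

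At the other end, ENSCAFG00000007143 had the largest average SD, 1.30, or 0.69 without the shallow libraries. Its population medians ran only from 376 CPM in H PMN to 522 CPM in H Mono. Its H PMN libraries had 162, 327, 376, 496 and 653 CPM, its H Mono libraries 243, 522 and 578 CPM, and its M-MDSC libraries 195, 294, 426, 446 and 892 CPM. C PMN libraries ran from 2.60 through 416 to 614 CPM, PMN-MDSC libraries from 0.952 through 452 to 727 CPM, and C Mono libraries from 184 through 379 to 817 CPM. Each population therefore held libraries more than 2-fold apart around like medians. ENSCAFG00000009651 was the next most variable, with an average SD of 1.06, or 0.58 without the shallow libraries, where 3 of the 165 genes had a larger one. Its highest deeper library was 9.15 times its lowest, 305 against 33.4 CPM.

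In both shallow libraries most CPM-steady genes were far below their population's level. The median gene was at 4.50% of its C PMN median in C PMN replicate 7 and at 3.70% of its PMN-MDSC median in PMN-MDSC replicate 9. In the other 38 libraries the median gene was at 85.4% to 111%. Of the 165 genes, 113 (68.5%) were under 10% of their median in C PMN replicate 7, 110 (66.7%) in PMN-MDSC replicate 9 and 96 in both. Of the background genes 62.3% and 65.1% were so in these libraries. Within 2-fold were 10 genes in each (6.06%, against 9.16% and 8.80% of the background), and 6 in both. The median gene had 24 counts in C PMN replicate 7, where its population median at that depth corresponds to 461, and 29 in PMN-MDSC replicate 9, where it corresponds to 700. The cause was not tested.

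The genes together held 1.12% of the counts in C PMN replicate 7 (95% Wilson interval, for read sampling only, 1.11% to 1.13%) and 1.04% in PMN-MDSC replicate 9 (1.03% to 1.04%). In the other 38 libraries this share was 2.80% to 3.53%, with a median of 3.27%. In each shallow library 1 CPM-steady gene had 0 counts, ENSCAFG00000001496 in C PMN replicate 7, which allows up to 0.709 CPM, and ENSCAFG00000007088 in PMN-MDSC replicate 9, which allows up to 0.476 CPM. These were singled out after their values were seen. A few genes went the other way, with 5 above 2 times their median in C PMN replicate 7 and 4 in PMN-MDSC replicate 9. The background behaved much alike, with a median gene at 5.61% and 4.54% of its population's level. Genes above 2 times their median were 3.03% and 2.42% of the CPM-steady genes and 6.23% and 5.79% of the background.

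The gene furthest above its level in both shallow libraries was ENSCAFG00000013683, with 917 CPM in C PMN replicate 7 and 325 CPM in PMN-MDSC replicate 9. The C PMN median was 120 CPM, and the other 9 libraries had 65.6 to 229 CPM. The PMN-MDSC median was 96.6 CPM, and the other 8 libraries had 39.2 to 127 CPM. In the other populations it had 109, 136, 140, 147 and 164 CPM in H PMN, 73.3, 97.1 and 119 CPM in H Mono, 97.9 to 144 CPM in C Mono around 118, and 107, 107, 113, 119 and 153 CPM in M-MDSC. ENSCAFG00000001620 was next, with 325 and 388 CPM in the shallow libraries against medians of 109 and 142 CPM. The genes furthest below in both were ENSCAFG00000007143, at 2.60 and 0.952 CPM, and ENSCAFG00000016582, at 1.18 and 0.794 CPM against medians of 122 and 105 CPM, each of these values resting on 5 to 11 counts. Across the 165 genes the levels relative to the population median in the shallow libraries had a Spearman correlation of 0.66, and 0.71 across the background. This describes genes of 2 libraries that share their low depth and library series, and genes are not independent replicates.

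The ratio limit held on CPM and was mostly lost when libraries were scaled by TMM factors, edgeR's scaling that sets the bulk of genes level between libraries. On this scale 5 of the 165 genes kept a ratio of at most 1.5, and the median ratio was 2.06, with a range of 1.34 to 3.09. The background had a larger median ratio, 2.78, and a larger share within the limit, 7.99% against 3.03% of the CPM-steady genes. With DESeq2 size factors 13 of the 165 kept it (7.88%, against 9.31% of the background), and on TPM 119 did (72.1% against 10.8%). TPM is a share of the same counts after division by gene length. The share kept on TPM thus follows in large part from the choice on CPM. On the TMM scale all 165 genes had their lowest median in a monocyte-lineage population and their highest in a PMN-lineage population, which was C PMN for 95 of them. The TMM factor had a median of 0.78 in C PMN, 0.95 in H PMN and 0.97 in PMN-MDSC, against 1.48 in H Mono, 1.53 in C Mono and 1.51 in M-MDSC. Beside this, fewer genes made up the bulk of the reads in the PMN lineage, where 72 to 174 genes held 50% of the counts in the deeper libraries against 219 to 333 in the monocyte lineage. Whether this difference accounts for the scaling factors was not tested.

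The same rule applied to TMM-scaled CPM kept 122 genes, of which 4 were among the 165. These are 2.42% of the CPM-steady genes and 3.28% of the TMM-steady genes. On deposited CPM all 122 were lower in C PMN than in C Mono, by a median log2 ratio of -0.88. This follows from choosing them on the other scale, given the gap between the TMM factors of these populations. In bulk samples, fewer cells of a type and less RNA per cell cannot be told apart, and neither scaling gives transcripts per cell. Spike-in sequences had 0 to 94 counts in a library and set no level per cell. The study's text names them as part of the alignment reference and does not say that a spike-in was added.

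**Figure D3:**
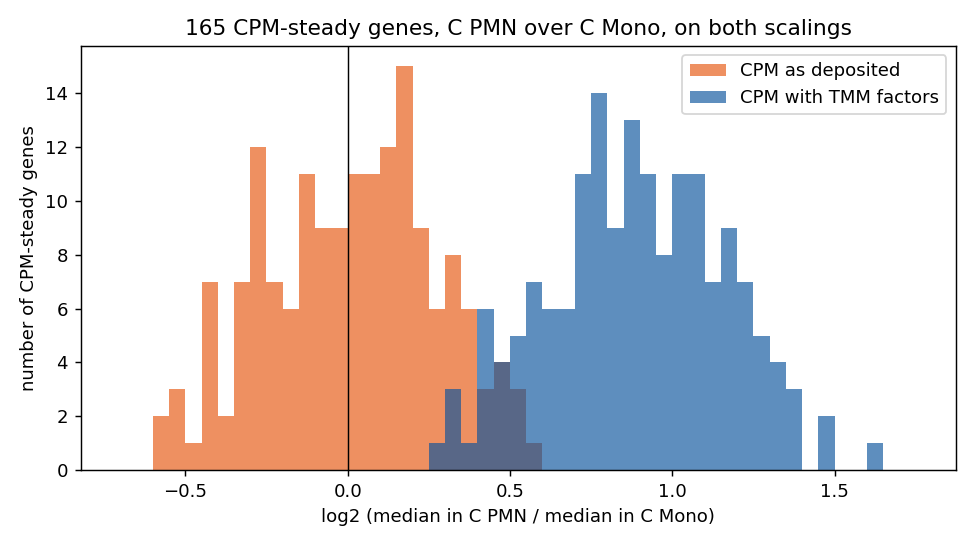
The histogram counts the 165 CPM-steady genes by the log2 ratio of their C PMN to their C Mono median, on CPM as deposited and on CPM with TMM factors. The median ratio is 0.03 on CPM, where 89 genes are above 0, and 0.89 with TMM factors, where all 165 are.

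Between C PMN and C Mono, edgeR's quasi-likelihood test with TMM factors called 139 of the 165 genes higher in C PMN and 0 lower, at a Benjamini-Hochberg adjusted p of at most 0.05 over all genes tested. Of all 11261 genes tested, 31.5% were called higher and 34.1% lower. The choice of genes used this contrast, so the count is a description. At an unadjusted p under 0.05 there were 147 of the 165 and 68.9% of all genes, and DESeq2's Wald test called 146 higher beside 32.5% of all genes. Without both shallow libraries edgeR called 163 higher (98.8%), beside 34.5% of all genes. With library size alone as the scaling, edgeR called 0 of the 165, with 1 of them and 67.1% of all genes at an unadjusted p under 0.05, beside 13.1% of all genes called higher and 50.9% lower. Over all genes, the scaling moved the median of the log2 fold change by 1.05, from -1.08 with library size alone to -0.03 with TMM factors. Relative to that median, the CPM-steady genes had a median of 0.99 with TMM factors, 0.97 with DESeq2 size factors and 1.03 with library size alone. A change of scaling moves all genes nearly alike, so these values are close by construction, and without the filter on low counts the value was 0.48. The background sat there too, with a median log2 ratio of population medians of 0.98 on the TMM scale against 0.89 for the CPM-steady genes.

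Between PMN-MDSC and M-MDSC the count changed most with a single library. The test called 9 of the 165 genes higher in PMN-MDSC and 0 lower, where 11.1% of all genes tested were called higher, 11.9% lower and 22.9% in either direction. The 9 genes are 5.45% of the 165. Without PMN-MDSC replicate 9, the only shallow library in this contrast, 82 of the 165 were called (49.7%), all higher in PMN-MDSC, beside 18.5% of all genes called higher and 37.5% in either direction. The rule used the medians of both populations, so the shares called describe these genes and test nothing. Leaving out any of the other 13 libraries gave 1 to 8, all higher, beside 951 to 1293 of all genes called higher, of 11475 to 11985 tested. DESeq2's Wald test called 46 higher (27.9%), beside 18.6% of all genes called higher and 38.1% in either direction. Scaling moved the median of all genes by 0.79 on the log2 scale, and relative to it the CPM-steady genes had a median of 0.35 with TMM factors, 0.47 with library size alone and 0.19 without the filter on low counts. With library size alone, edgeR called 0 of the 165, with 0 of them and 37.5% of all genes at an unadjusted p under 0.05, beside 4.73% of all genes called higher and 21.4% lower. Their median log2 fold change was -0.17 against 0.49 with TMM factors, a change of sign that restates the shift of all genes.

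The medians of these populations were also used in choosing the genes for contrasts within a lineage, so the counts called there describe these genes and test nothing. Between PMN-MDSC and C PMN, edgeR called 0 of the 165 beside 10% of all 10278 genes tested (8.47% higher and 1.57% lower in PMN-MDSC), with 7 of the 165 and 27.6% of all genes at an unadjusted p under 0.05, and DESeq2's Wald test called 8, all lower in PMN-MDSC, beside 7.59% of all genes called lower. Without both shallow libraries edgeR called 14, all lower in PMN-MDSC, where 8.15% of all genes were called lower and 22.6% in either direction. Without PMN-MDSC replicate 9 alone it called 3 (1.82%), all lower, beside 295 lower and 1008 higher of all 10499 genes tested. With DESeq2 size factors in edgeR 1 of the 165 was called lower, beside 2.39% of all genes. Library size alone gave 0 of the 165, with 0 of them and 21.0% of all genes at an unadjusted p under 0.05, beside 8.96% of all genes in either direction and 8.9% higher. Scaling by TMM factors moved the median of all genes by -0.22 here, and relative to it the CPM-steady genes had a median of -0.21 on either scaling, which is close by construction, and of -0.07 without the filter on low counts. Between M-MDSC and C Mono, edgeR called 0 of the 165 beside 0.758% of all 11874 genes tested (0.505% higher in M-MDSC), with 13 of the 165 and 13.7% of all genes at an unadjusted p under 0.05, and DESeq2's Wald test called 3, all higher in M-MDSC, beside 2.34% of all genes called higher. The median of the 165 genes was 0.12 above that of all genes.

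The library series was not named in the rule, and was tested in the 32 libraries of tumor-bearing dogs with population as a covariate. The test is not independent of the rule, whose medians used the same libraries and set populations of both series against healthy ones of series GAR4079 alone, so genes with a large series difference were less likely to be kept. Of the 165 genes, 1 was higher and 1 lower in series PAT4694 by edgeR's test, beside 1.03% and 0.528% of all 13073 genes tested, or 1.56% in either direction. The share of the CPM-steady genes called with all libraries was 1.21%. Without both shallow libraries, which are both of series PAT4694, 3 were called higher (1.82%) and 13 lower (7.88%), beside 2.5% and 1.66% of all genes and 4.16% in either direction, and both genes called with all libraries were among these 16. In this and the other contrasts, the genes tested include genes that did not meet the level of 50 CPM. The share called was not computed for the background, so the shares are not matched for level. DESeq2's Wald test called 7 higher (4.24%) and 13 lower (7.88%), beside 5.86% and 3.31% of all genes and 9.17% in either direction. With DESeq2 size factors edgeR called 7 higher and 3 lower, beside 3.84% and 0.994%, or 4.83% in either direction. With library size alone it called 0 of the 165, with 13 of them and 10.5% of all genes at an unadjusted p under 0.05, beside 0.398% higher, 0.0535% lower and 0.451% in either direction. The number called thus moved with the tool and the scaling for the CPM-steady genes and for all genes. Leaving out 1 library at a time gave 0 to 8 called genes, with 8 without PMN-MDSC replicate 9 and 4 without C PMN replicate 7, PMN-MDSC replicate 7 or C Mono replicate 6. The 8 genes are 4.85% of the 165, beside 162 higher and 94 lower of all 13057 genes tested without PMN-MDSC replicate 9. The median log2 difference between the series was -0.12 relative to all genes, and -0.02 without the shallow libraries. For a series effect that differs between the PMN and the monocyte lineage, edgeR called 0 of the 165 and 0 of all 13073 genes, with 11 of the 165 and 9.47% of all genes at an unadjusted p under 0.05, and DESeq2's Wald test called 0 of the 165 and 0.581% of all genes.

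ENSCAFG00000016589 was the gene higher in series PAT4694. In C Mono it had 37.7, 42.6, 43.4 and 44.5 CPM in series GAR4079 and 63.3, 78.9, 113 and 138 CPM in series PAT4694. In M-MDSC it had 40.2, 52.5 and 53.3 CPM against 104 and 131 CPM. These libraries did not overlap between the series in either population. In C PMN the GAR4079 libraries had 32.8 to 77.1 CPM with a median of 62.4, and the PAT4694 libraries 3.31, 120, 137 and 159 CPM. In PMN-MDSC the values were 34.9, 51.3, 53.3, 58.1 and 88.7 CPM against 2.06, 74.96, 153 and 231 CPM. Its lowest value in each of these populations came from the shallow library of series PAT4694, and apart from that library the PAT4694 values were higher, with an overlap in PMN-MDSC. The log2 fold change was 0.98 (SE 0.24, adjusted p = 0.0323 by edgeR), and over the 5 alternative settings it was 0.97 to 1.19 with adjusted p from 6.28e-06 to 0.237.

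ENSCAFG00000014291 was the gene lower in series PAT4694. In M-MDSC it had 82.5, 86.3 and 106 CPM in series GAR4079 and 46.4 and 60.5 CPM in series PAT4694. In C Mono it had 53.8, 79.2, 82.2 and 102 CPM against 49.1, 56.4, 56.6 and 78.9 CPM. The series were apart in M-MDSC and overlapped in C Mono. In C PMN the GAR4079 libraries had 49.8 to 95.7 CPM with a median of 84.5, and the PAT4694 libraries 12.5, 53.6, 64.7 and 66.4 CPM. In PMN-MDSC the values were 63.3, 64.7, 69.2, 82.8 and 90.3 CPM against 2.86, 46.1, 63.9 and 64.6 CPM. The values of 12.5 and 2.86 CPM were those of the shallow libraries. Apart from those libraries, the series overlapped in C PMN and in PMN-MDSC. The log2 fold change was -0.57 (SE 0.15, adjusted p = 0.0443 by edgeR), and over the 5 alternative settings it was -0.65 to -0.43 with adjusted p from 0.00639 to 0.364. The call was kept in 10 of the 32 fits that left out 1 library, against 27 of 32 for ENSCAFG00000016589.

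The library series also allow the rule to be set on some libraries and read in others. Applied to the 26 libraries of series GAR4079 alone, it kept 156 of 1373 genes that met the level. In the 14 libraries of series PAT4694, which cover the 4 populations of tumor-bearing dogs, 90 of the 156 genes (57.7%) had a ratio of at most 1.5, where 18.1% of all 1373 did. Their median ratio there was 1.45 against 2.03. Without both shallow libraries it was 66.0% of the 156 against 19.3% of all 1373. In the other direction, 259 genes passed in series PAT4694, and 145 of them (56.0%) had a ratio of at most 1.5 over the same 4 populations of series GAR4079, against 18.8% of the 1411 genes that met the level. Without both shallow libraries 297 of 1508 genes that met the level passed in series PAT4694. Of these, 169 (56.9%) had such a ratio in series GAR4079, against 18.6% of the 1508. The share was larger for the steady genes in both directions. This difference was not tested, and the genes that met the level include the steady ones. More than 40% of the steady genes exceeded the limit in the other series when all its libraries were used. Whether the 2 series share dogs is not given in the labels.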

How the data were processed

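RNA of flow-sorted blood cells was made into Smart-seq2 and Nextera XT libraries and sequenced as read pairs. The authors used skewer for trimming, HISAT2 for alignment to CanFam3.1 and the spike-in sequences, marked duplicates with Picard 1.92 and made the deposited counts with featureCounts (Subread 1.5.0, versions from the submitters' processing notes) from reads unique to exons of Ensembl genes. The authors scaled these counts to each library's total to give the deposited CPM, which was checked on the values. The deposited TPM also divides by a gene length that is not given in the sources used here. A further table that repeats the CPM values was not used.

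The members and lists were chosen with earlier results of these data known. Populations and library series were taken from the labels. Medians, SDs of log2(CPM + 1) and CVs were computed in Python 3.11.15 with numpy 2.4.6, pandas 2.3.3 and scipy 1.17.1, and figures with matplotlib 3.10.9. Counts were tested with edgeR 4.0.16 (TMM factors, filterByExpr, quasi-likelihood test, Benjamini-Hochberg adjusted p of at most 0.05 over all genes tested) and DESeq2 1.42.0 under R 4.3.3, with limma 3.58.1. All 165 members passed the filter on low counts in each fit. SEs of log2 fold changes were taken from the quasi-likelihood F statistic. The fits were tested on simulated data, and the outcome is not given here. As a look for duplicated libraries only, pairs of libraries of a population were compared with counting error, and the lowest chi-square per degree of freedom was 109.6.

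Named IDs are the 2 members with the highest lowest-median, the 2 with the smallest ratio, the 2 with the smallest and the 2 with the largest mean SD, the 2 furthest below and above in both shallow libraries (under 10000000 counts), and those called between library series. The gene lists, cell type markers and promoter motifs planned for the members need gene symbols and were not used here. No sorted population could therefore be checked against marker genes.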

Additional observations from a re-analysis of the deposited data

Results flagged for a closer look

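Of 75 sets of 5 to 10 libraries (the share of counts held by the 165 CPM-steady genes, the number within 2-fold of their population median and the CPM of each named gene, by population), 13 had a library whose gap to the nearest other was large for the range. Chance flags about 1 in 20 sets, and several of these measures share libraries and genes. This rate does not apply to ENSCAFG00000013683 and ENSCAFG00000001620 in the shallow libraries, since these genes were named for their high values there. Nor does it apply there to ENSCAFG00000009651 and ENSCAFG00000032168, which were named by a mean SD that included the shallow libraries. ENSCAFG00000014291 was named as lower in series PAT4694, which holds the shallow libraries, so the rate does not apply to it there either. The shallow libraries C PMN replicate 7 and PMN-MDSC replicate 9 account for 12 of the 13.

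C PMN replicate 7 had the lowest share of counts in its population, 1.12%, with 10 genes within 2-fold, and PMN-MDSC replicate 9 the lowest in its own, 1.04%, also with 10 genes. C PMN replicate 7 was the lowest of its population for ENSCAFG00000032168 at 244 CPM, and the highest for ENSCAFG00000013683 at 917 CPM and ENSCAFG00000001620 at 325 CPM. PMN-MDSC replicate 9 was the lowest for ENSCAFG00000001395 at 3.33 CPM, ENSCAFG00000009651 at 0.794 CPM and ENSCAFG00000014291 at 2.86 CPM, and the highest for ENSCAFG00000013683 at 325 CPM and ENSCAFG00000001620 at 388 CPM. The remaining library was M-MDSC replicate 4, the highest of 5 for ENSCAFG00000013683 at 153 CPM.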

How the results depend on the processing

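For 14 results 69 alternatives were run, some of which could not move a result, such as leaving out the shallow libraries for populations that have none. The number of genes passing the rule was 19 with the tighter of the planned ratio limits and 525 with the limit of 2, 295 with a level of 20 CPM and 79 with 100 CPM, and 97 on TPM. With TMM factors it was 122 and with DESeq2 size factors 135, near the 165 reported in number, but with 4 and 12 of these 165 among them. It was 259 in series PAT4694 alone, which has 4 populations. Of the 165 genes, 5 kept the ratio with TMM factors and 13 with DESeq2 size factors. The median SD was 0.79 in C PMN and 0.85 in PMN-MDSC with TMM factors, 0.38 and 0.33 without both shallow libraries (under 10000000 counts), and 0.37 and 0.26 in series GAR4079 alone. In PMN-MDSC it was 0.28 without replicates 3, 8 and 9, an alternative chosen after seeing the data.

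Genes called between library series were 10 with DESeq2 size factors in edgeR, 0 with library size alone (13 at an unadjusted p under 0.05, and 10.5% of all genes), 0 without a filter on low counts (38 at an unadjusted p under 0.05, and 18.6% of all genes, with 0.777% of all genes called), 20 with DESeq2's Wald test and 16 without both shallow libraries, against 2 reported. For PMN-MDSC against C PMN, with 0 reported, they were 1 with DESeq2 size factors, 8 with the Wald test and 14 without both shallow libraries. For M-MDSC against C Mono, with 0 reported beside 0.758% of all genes, the Wald test gave 3 (4.28% of all genes called). For C PMN against C Mono, library size alone gave 0 in place of 139, with 1 at an unadjusted p under 0.05, where 67.1% of all genes were. For PMN-MDSC against M-MDSC, with 9 reported, library size alone gave 0 (0 at an unadjusted p under 0.05, and 26.1% of all genes called), no filter 2 (13.6% of all genes called), the Wald test 46 (38.1% of all genes called) and leaving out both shallow libraries 82 (37.5% of all genes called). The cause of the differences between tools was not tested.

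Leaving out each library in turn gave 149 to 176 genes passing the rule and 139 to 162 of the 165 genes keeping the ratio. The median SD ran from 0.23 to 0.26 in H PMN, 0.38 to 1.46 in C PMN, 0.33 to 1.60 in PMN-MDSC, 0.15 to 0.25 in H Mono, 0.22 to 0.24 in C Mono and 0.26 to 0.30 in M-MDSC. Called genes ran from 0 to 8 between series, 0 to 3 for PMN-MDSC against C PMN and 1 to 82 for PMN-MDSC against M-MDSC. Of all genes, these fits called 66 to 197 higher and 29 to 94 lower between series, of 12997 to 13412 tested. For PMN-MDSC against C PMN they called 653 to 1554 higher and 59 to 485 lower, of 10024 to 10499. For PMN-MDSC against M-MDSC they called 951 to 2144 higher and 1101 to 2212 lower, of 11475 to 11985. For C PMN against C Mono, 75.8% to 98.8% of the 165 were called, beside 3279 to 3922 of all genes higher, of 11018 to 11562. For M-MDSC against C Mono, edgeR called 0 of the 165 in each fit. Of all genes, these fits called 16 to 105 higher and 5 to 79 lower, of 11629 to 12114. With all libraries 13 were at an unadjusted p under 0.05 (13.7% of all genes), and the Wald test called 3 (4.28% of all genes called). No paired analysis was possible because the replicate numbers follow the order of the samples and the labels tie no libraries of different populations to a dog. At 584 counts or more per gene, depth limits little in the deeper libraries. In each shallow library 38 of the 165 genes had under 10 counts. The population medians correspond there to at least 216 counts in C PMN replicate 7 and 322 in PMN-MDSC replicate 9. The cause was not tested.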
